A study of Danio rerio with 15 samples.

Results

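The comparison set 7 against 4 days post amputation (dpa) at the amputation plane of regrowing zebrafish fins, across every gene measured. It compared 6 of the 15 libraries of the time course, 3 at 4 dpa and 3 at 7 dpa, chosen by their labelled time alone. The libraries at 0, 14 and 21 dpa served as reference levels. They also entered the fit, so the spread behind each p-value came from all 15 libraries. All libraries came from wild-type fins with no drug or transgene in the labels, each was a pool of 10 animals, and the age of the fish is not given in the sources used here. The tissue held 1 bone segment on each side of the plane, so stump and new tissue were mixed. The sample labels give 4 dpa and the design text gives 3.5 dpa for the earlier group, which is called 4 dpa here. Of 14836 genes in the table, 10234 were tested.

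After amputation a zebrafish fin closes the wound with epidermis and then builds a blastema, a mass of dividing mesenchymal cells beneath the wound epidermis. The blastema stays at the growing tip, so the plane is left behind by it as the fin lengthens, and the tissue there differentiates into bony rays, dermis and skin. Actinotrichia are stiff fibrils of collagen and actinodin that support the growing tip before bone forms. The study's title concerns gradients of Erk, a kinase switched on by growth factor receptors such as those for Fgf.

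Values are TPM, a length-normalized abundance, after removal of 1 rRNA gene and median-of-ratios scaling, and are called scaled TPM. Changes are differences of log2(scaled TPM + 1) between 7 and 4 dpa, which understates changes of genes near 0, and a gene was called when its adjusted p was under 0.05. Bulk tissue was measured, so fewer cells of a type and less RNA per cell cannot be told apart. The rRNA gene took 22.9%, 9.00% and 71.6% of TPM in the 3 libraries at 4 dpa and 60.3%, 61.1% and 9.23% at 7 dpa. Some libraries with like rRNA shares resembled each other across the time points: the Spearman correlation across genes was 0.949 between 4 dpa replicate 2 and 7 dpa replicate 3, and 0.908 between replicates 2 and 3 of 4 dpa. Replicate 1 of 4 dpa, also of lower share, correlated at 0.946 with 7 dpa replicate 3. Within 7 dpa, replicate 3 correlated at 0.92 and 0.915 with replicates 1 and 2, of higher share. For 4 dpa replicate 3 the contrast was not clear throughout. Its correlation was 0.93 with 4 dpa replicate 1, of lower share. With 7 dpa replicates 1 and 2, of like share, it was 0.93 and 0.924. Library 4 dpa replicate 3 listed 3039 genes at 0, more than any other library. Keratins and other basal epidermis genes summed to 14093, 14573 and 16445 scaled TPM at 4 dpa and 18058, 18381 and 19056 at 7 dpa. Markers of skeletal muscle, which fin rays lack, summed to 9.63, 11.3 and 7.82 at 4 dpa and 9.03, 9.24 and 11.8 at 7 dpa. Of the 24 in the table, 4 were at 0 in all 6 libraries, and of 3 abundant enough to test 0 were called (0 at an unadjusted p under 0.05, 0 with library weights).

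From 4 to 7 dpa the largest falls included those of fibril and mineral matrix genes, of the gene zgc:194627 and of genes for cell division. On the log2(scaled TPM + 1) scale the largest rises of called genes were those of the chemokine gene ccl19b, the transcription factor gene foxn1, the noncoding RNA si:dkey-33c14.3 and the gene zgc:136930. In all, 372 of the 10234 genes were called (3.63%), of which 256 were lower (2.50%) and 116 higher (1.13%) at 7 dpa (limma, Benjamini-Hochberg adjustment). The libraries of the 2 times did not overlap for 2012 genes (19.7%), and every called gene was among these. Without adjustment 1623 of the 10234 genes had a p under 0.05 (limma). A fit with library weights, which did not reach its convergence tolerance, called 2824. Counts given for single lists at these 2 settings stand beside those totals. The log2 change was at least 1 in size for 142 of the lower and 41 of the higher genes, and its median was -1.04 among the lower and 0.88 among the higher. Genes lower at 7 dpa made up 68.8% of the calls, against 95.1% of 142 calls in the deposited TPM and 89.3% of 224 calls after rescaling each library to a constant total without the rRNA gene. The median change over all genes was -0.0038 here, -0.20 in the deposited TPM and -0.06 after that rescaling, so the split of the calls by direction depended on the scaling.

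**Figure D1:**
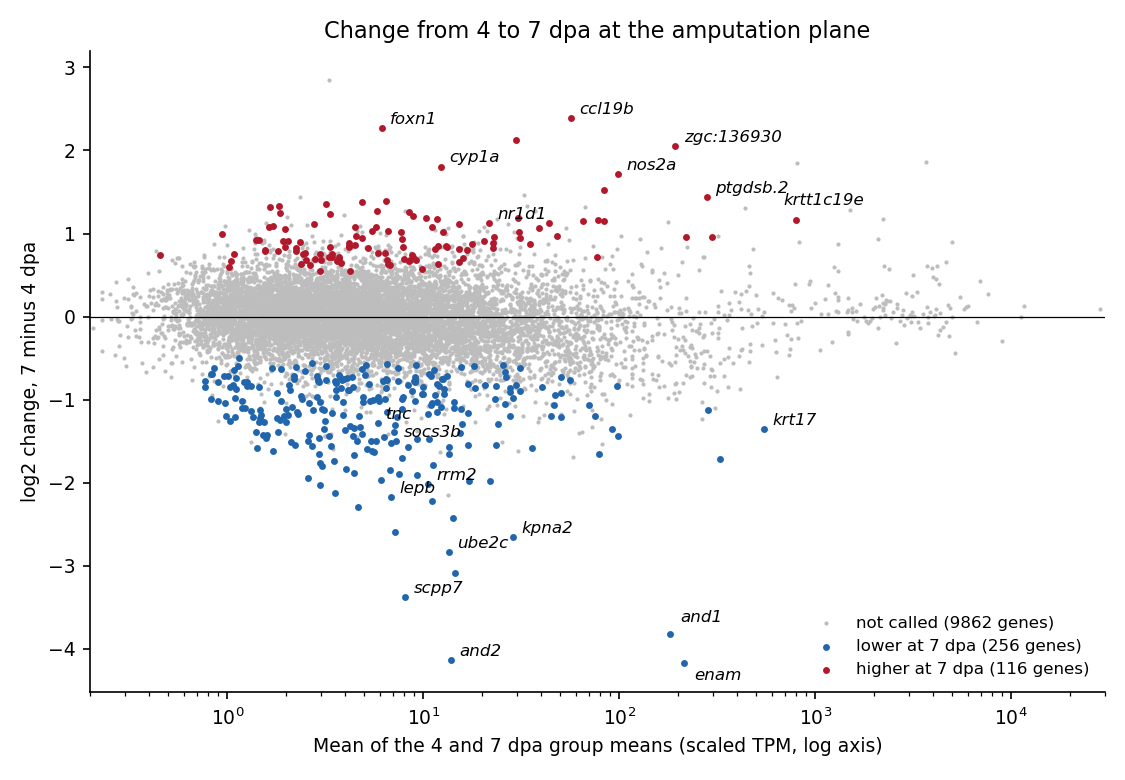
Each point is 1 of the 10234 genes tested, with its mean level at 4 and 7 dpa in scaled TPM (log axis) against its log2 change. The 256 genes lower at 7 dpa (blue) reach -4.17 for enam, and the 116 higher genes (red) reach 2.39 for ccl19b.

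The rRNA share was unequal between the times, so each called gene was also compared inside libraries of like share. Libraries with a low share were 4 dpa replicates 1 and 2 and 7 dpa replicate 3, and libraries over 50% were 4 dpa replicate 3 and 7 dpa replicates 1 and 2. The signs in both comparisons were fixed by the lack of overlap and say nothing of stability, so only the sizes are shown. All 372 genes stayed called with the rRNA share as a covariate, which gave 856 calls in total. Without 4 dpa replicate 3, 207 of the 256 lower and 74 of the 116 higher genes were called. The calls kept in every fit that left out 1 of the 15 libraries were 138, of which 116 were lower and 22 higher.

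**Figure D2:**
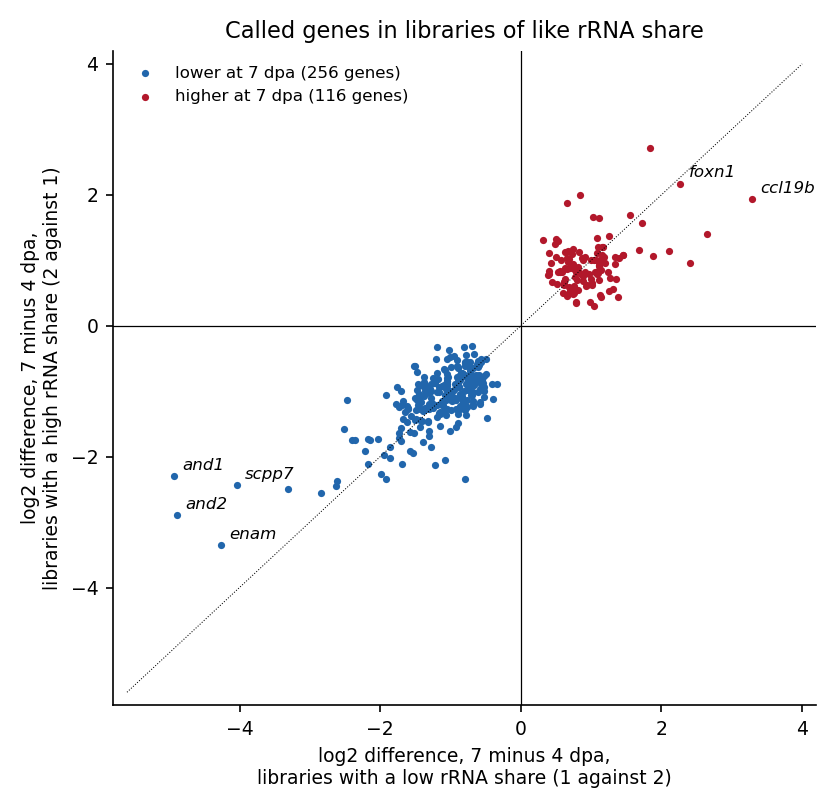
Each point is 1 of the 372 called genes, with its log2 difference between 7 and 4 dpa in the libraries of low rRNA share (1 against 2 libraries) against that in the libraries of high share (2 against 1). The placing of the 256 lower genes in the lower left and the 116 higher genes in the upper right follows from the lack of overlap, and and1 lies off the dotted line of equal differences at -4.94 in the low and -2.30 in the high libraries.

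Most genes of cell division fell. Of 43 tested genes of mitosis, 37 were lower and none was higher, with a median log2 change of -1.26 against -0.0038 over all genes, and all 43 had a lower mean at 7 dpa. Of 50 genes of DNA replication 32 were lower and none higher, with a median of -0.89. These shares stand beside 2.50% of all genes lower. The mitosis calls numbered 32 to 38 and the replication calls 19 to 32 when 1 library was left out, the fewest without 4 dpa replicate 1 and without 4 dpa replicate 2. Among the 256 lower genes 74 were in a list of the cell cycle. The lists of DNA replication, mitosis and cell cycle regulators held 50, 43 and 43 of the 10234 genes tested.

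The mitotic genes with the largest falls act in entry into mitosis, in control of its exit or at the kinetochore. The ubiquitin-conjugating enzyme gene ube2c, which works with the anaphase-promoting complex, stood at 27.17, 31.7 and 14.5 scaled TPM in replicates 1 to 3 at 4 dpa and at 1.35, 2.42 and 3.93 at 7 dpa (log2 change -2.83, SE 0.32, adjusted p = 1.20e-04). The mitotic kinase gene cdk1 stood at 12.9, 15.7 and 10.4 at 4 dpa and at 0.762, 1.75 and 1.49 at 7 dpa (log2 change -2.59, SE 0.25, adjusted p = 3.12e-05). Its partner cyclin B1, ccnb1, went from 20.1, 24.4 and 12.3 to 2.57, 3.46 and 3.50 (log2 change -2.21, SE 0.23, adjusted p = 7.46e-05). In all 3 genes the lowest 4 dpa library, replicate 3, lay well above the highest 7 dpa library. The spindle checkpoint gene mad2l1 had 24.5, 34.1 and 15.3 scaled TPM at 4 dpa and 2.19, 3.41 and 5.66 at 7 dpa, and the kinase gene plk1 had 4.95, 7.04 and 7.16 at 4 dpa and 0.366, 0.900 and 0.834 at 7 dpa. The kinetochore gene spc24 had 7.95, 10.0 and 6.92 at 4 dpa and 0.939, 0.389 and 1.496 at 7 dpa. None of these overlapped between the times, and each was called in all 15 fits that left out 1 library. At 0 dpa, before growth, cdk1 stood at 1.80, 1.23 and 1.05 and ccnb1 at 3.04, 2.77 and 2.46, close to their 7 dpa values, and at 21 dpa ccnb1 averaged 1.36 ± 0.580 (SD, n = 3).

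By role, 12 of 14 genes of mitotic cyclins, kinases and anaphase control were lower, 6 of 8 of the kinetochore, 10 of 12 of the spindle and cytokinesis and 9 of 9 of chromosome condensation. The proliferation marker mki67, named after its values were seen, stood at 5.93, 6.23 and 8.44 scaled TPM at 4 dpa and at 1.15, 1.49 and 0.942 at 7 dpa (log2 change -1.84, SE 0.16, adjusted p = 2.29e-05). Its 4 dpa libraries, replicate 3 highest, lay far above those at 7 dpa and at 0 dpa (0.852, 1.04 and 1.057). Members not called were the tubulin gene tuba8l4 (249.7, 244 and 249 to 206, 186 and 156, adjusted p = 0.386), stmn1a, whose product destabilizes microtubules (adjusted p = 0.0980), and cks2, a Cdk subunit gene (adjusted p = 0.0742). In cks2 the groups did not overlap, and in stmn1a they did, since 7 dpa replicate 3 (20.5, 25.9 and 46.5 in replicates 1 to 3) reached above 4 dpa replicate 3 (75.4, 87.4 and 45.9).

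Other large falls among nuclear genes were those of kpna2, hmgn2, aurkb and cks1b. The importin gene kpna2 went from 43.6, 58.2 and 49.3 to 6.33, 9.05 and 6.16 scaled TPM (log2 change -2.66, SE 0.19, adjusted p = 7.45e-06), the smallest adjusted p of the named genes. The aurora kinase B gene aurkb went from 9.87, 12.4 and 8.45 to 1.02, 2.41 and 2.33, and the Cdk subunit gene cks1b from 15.07, 17.7 and 13.0 to 2.72, 2.69 and 4.83. The nucleosome-binding gene hmgn2, far more abundant, went from 531, 644 and 326 to 116, 124 and 215 (log2 change -1.72, SE 0.37, adjusted p = 0.0186). In hmgn2 the gap between the groups was narrow, from 326 in 4 dpa replicate 3 to 215 in 7 dpa replicate 3, and its call was lost without 4 dpa replicates 1 and 2 and 7 dpa replicates 1 and 2 in turn (adjusted p up to 0.0963).

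Supply of deoxynucleotides was the step of replication in which every tested gene was called, with 7 of 7 genes lower and a median of -1.63. All 12 tested genes of origin licensing and firing and all 9 of chromatin assembly and checkpoint also had a lower mean at 7 dpa. The ribonucleotide reductase gene rrm2 stood at 17.6, 18.8 and 16.4 scaled TPM at 4 dpa and at 3.42, 3.39 and 3.99 at 7 dpa (log2 change -2.02, SE 0.21, adjusted p = 5.30e-05). The thymidine kinase gene tk1 stood at 7.35, 8.87 and 8.57 at 4 dpa and at 2.09, 2.09 and 2.04 at 7 dpa (log2 change -1.59, SE 0.14, adjusted p = 2.29e-05). In both genes the replicates lay close together and the times far apart. The dUTPase gene dut had 35.9, 45.9 and 24.5 at 4 dpa and 7.35, 5.85 and 11.8 at 7 dpa in scaled TPM, the dihydrofolate reductase gene dhfr 17.1, 17.4 and 18.8 at 4 dpa and 4.42, 2.83 and 6.86 at 7 dpa, and the deoxycytidine kinase gene dck 8.29, 12.2 and 6.53 at 4 dpa and 1.47, 2.35 and 2.77 at 7 dpa. All 5 were called in every fit that left out 1 library. Among the 20 largest falls was also the histone H3 gene hist2h3c (29.3, 26.9 and 27.39 to 7.09, 7.86 and 4.52, log2 change -1.97, SE 0.30, adjusted p = 0.00164). Histone genes have near-identical copies between which reads can be split, so the value of any 1 copy is uncertain. The genes zgc:194627, zgc:153405 and zgc:110216, whose products are not described here, were also among these 20, with log2 changes of -3.09, -1.90 and -1.84.

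At the fork 15 of 22 genes were lower, in origin licensing and firing 5 of 12, and in chromatin assembly and checkpoint 5 of 9. The single-strand DNA binding gene rpa2 stood at 35.6, 49.5 and 22.1 scaled TPM at 4 dpa and 9.39, 9.60 and 14.5 at 7 dpa (log2 change -1.55, SE 0.31, adjusted p = 0.0131), a call lost without 4 dpa replicates 1 and 2 and 7 dpa replicates 1 and 2 in turn (adjusted p up to 0.0719). The sliding clamp gene pcna, named after its values were seen, stood at 58.1, 68.0 and 61.3 at 4 dpa and 25.4, 32.1 and 22.9 at 7 dpa (log2 change -1.20, SE 0.19, adjusted p = 0.00217). The helicase subunit gene mcm5, named likewise, stood at 8.52, 10.1 and 9.58 at 4 dpa and 3.97, 3.86 and 3.25 at 7 dpa (log2 change -1.15, SE 0.17, adjusted p = 0.00125). At 7 dpa mcm5 was still above its level at 0 dpa (1.77, 2.11 and 2.15) in every library, while rrm2 at 0 dpa (3.17, 2.18 and 2.64) lay just under its 7 dpa range. The abundant members rpa3, pold3 and mcm3 had log2 changes of -1.51, -0.82 and -0.70 and were not called (adjusted p = 0.0672, 0.0619 and 0.175).

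Regulators of entry into the cycle went both ways. Of 43 tested, 5 were lower and 1 was higher, beside 2.50% and 1.13% of all genes, and the median was -0.04. The cyclin E gene ccne2 fell from 3.60, 4.44 and 4.27 to 1.34, 1.98 and 1.53 scaled TPM (log2 change -0.97, SE 0.16, adjusted p = 0.00247). The repressor gene e2f8 fell from 1.37, 1.55 and 2.25 to 0.461, 0.796 and 0.214 (log2 change -0.88, SE 0.17, adjusted p = 0.0101), and both were called in all 15 fits that left out 1 library. Neither was called after rescaling to a constant total or with the 6 libraries at 4 and 7 dpa fitted alone. The kinase gene cdk2, the Myb gene mybl2b and the stress gene gadd45bb were also lower (log2 changes -0.77, -0.79 and -1.14), with calls lost without 4 dpa replicate 1, among other libraries (largest adjusted p 0.188, 0.121 and 0.152). The growth restraint gene sesn1 was higher, from 6.56, 7.44 and 5.08 to 11.0, 10.9 and 11.7 (log2 change 0.74, SE 0.15, adjusted p = 0.0131), a call lost without 4 dpa replicate 1 and 7 dpa replicate 1 (adjusted p = 0.0512 at most). The early G1 cyclin gene ccnd1, named after its values were seen, stood at 4.13, 4.33 and 3.75 at 4 dpa and 4.31, 4.16 and 4.66 at 7 dpa (adjusted p = 0.831).

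The machinery of growth did not pass the test. Of 46 ribosome biogenesis genes 0 were called (limma, 3 at an unadjusted p under 0.05, 9 with library weights). The ribosomal protein genes were picked by symbol, which takes in the kinase gene rps6kal. Of these 80 genes 0 were called (1 at an unadjusted p under 0.05, 3 with library weights). Over all 10234 genes 3.63% were called, and these 2 settings gave 1623 and 2824. The nucleolar gene npm1a stood at 99.96, 96.7 and 93.0 at 4 dpa and 67.9, 70.25 and 94.5 at 7 dpa in scaled TPM, with the groups overlapping. The ribosomal protein gene rps20 stood at 9390.2, 13079 and 6122 at 4 dpa and 4980.4, 5491 and 14779 at 7 dpa, lowest in the 3 libraries over 50% rRNA. Among 81 genes of oxidative phosphorylation 71 had a lower mean at 7 dpa and the median was -0.46, but the single call was a rise, that of cox6a2 from 0.602, 1.29 and 0 to 2.08, 2.40 and 4.59 (log2 change 1.33, SE 0.31, adjusted p = 0.0296), lost without 4 dpa replicates 1 and 3 and 7 dpa replicates 2 and 3 in turn. That median was -0.02 inside the libraries of low rRNA share and -0.28 inside those of high share, and library weighting called 60 of the 81. The single call stands beside 1.13% of all genes higher. Of 21 glycolysis genes 0 were called (1 at an unadjusted p under 0.05, 5 with library weights).

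Few genes went from clearly detected to near 0. Under thresholds chosen after the values were seen, at least 5 scaled TPM in every 4 dpa library and under 1 in every 7 dpa library, 2 genes qualified, scpp7 and and2, and 0 did so in the other direction. The mitotic kinase gene plk1 missed these thresholds in 1 library only, at 4.95, 7.04 and 7.16 at 4 dpa and 0.366, 0.900 and 0.834 at 7 dpa, while and1 and enam, described next, stayed detected at 7 dpa. Both tested genes of the actinotrichia list were lower. The actinodin gene and2 stood at 27.31, 44.8 and 9.87 scaled TPM at 4 dpa and at 0.504, 0.424 and 0.219 at 7 dpa (log2 change -4.13, SE 0.36, adjusted p = 2.29e-05), a ratio of means of 71.5. Its 7 dpa values were near those at 0 dpa (0.231, 0.194 and 0.348). The other, and1, was far more abundant, at 383, 523 and 117 at 4 dpa and 19.95, 26.4 and 13.7 at 7 dpa (log2 change -3.82, SE 0.41, adjusted p = 7.75e-05). At 7 dpa and1 remained above its 0 dpa libraries (4.02, 4.15 and 5.90) and above its mean of 9.11 ± 1.32 (SD, n = 3) at 14 dpa. Replicate 3 had the lowest 4 dpa value of both, and without it the log2 changes were -4.74 for and2 and -4.47 for and1. A further actinodin gene, and3, was in the table but below the filter.

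Enamelin and a related phosphoprotein fell with the actinodins. The gene enam encodes a secreted phosphoprotein that in mammals forms tooth enamel, and in fish its family also serves scales and fin rays. It stood at 472, 576 and 177 scaled TPM at 4 dpa and at 13.4, 20.05 and 26.2 at 7 dpa (log2 change -4.17, SE 0.38, adjusted p = 2.29e-05), the largest fall of all genes tested on the log2(scaled TPM + 1) scale. The fall was 20.5-fold in the means, less than the 71.5-fold of and2 and the 30.1-fold of scpp7, and 7 dpa was still above each 0 dpa library (3.55, 2.94 and 5.28) and above the 14 dpa mean of 4.48 ± 0.994 (SD, n = 3). The gene scpp7 of the same calcium-binding family stood at 21.4, 17.8 and 7.80 at 4 dpa and 0.970, 0.344 and 0.247 at 7 dpa (log2 change -3.38, SE 0.29, adjusted p = 2.29e-05), and it was listed at 0 in all 3 libraries at 0 dpa. Both were called in every fit tried. Of the 3 other members tested, scpp1 stood at 13.8, 12.6 and 4.91 at 4 dpa and 11.6, 14.1 and 12.0 at 7 dpa and overlapped between the times, scpp8 changed by -0.52 (adjusted p = 0.498), and the galectin gene lgals1l1 by -1.62 (adjusted p = 0.0550).

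The rest of the matrix changed in single genes. Of 18 genes of the provisional matrix 3 were lower and none higher, beside 2.50% and 1.13% of all genes (median -0.25). Tenascin C, tnc, an adhesion-modulating protein laid down in regenerating tissue, stood at 8.92, 9.06 and 8.02 scaled TPM at 4 dpa and 3.55, 3.51 and 2.06 at 7 dpa (log2 change -1.28, SE 0.17, adjusted p = 6.02e-04). The thrombospondin gene thbs3a stood at 32.0, 33.7 and 37.6 at 4 dpa and 12.9, 17.0 and 11.0 at 7 dpa (log2 change -1.29, SE 0.20, adjusted p = 0.00203). In both the 7 dpa values lay between those of 4 and 0 dpa, where tnc stood at 0.680, 1.24 and 0.872 and thbs3a at 5.18, 9.01 and 6.88. Another thrombospondin gene, thbs4b, fell from 57.1, 57.9 and 41.4 to 28.6, 29.0 and 27.35 (log2 change -0.84, SE 0.16, adjusted p = 0.00870), a call lost without 4 dpa replicates 1 and 2 (adjusted p up to 0.0592). After rescaling to a constant total none of the 3 was called.

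The most abundant matrix genes were not called. Periostin b, postnb, stood at 591, 602 and 409 at 4 dpa and 489, 494 and 617 at 7 dpa in scaled TPM, the bone and blastema glycoprotein gene sparc at 1184, 1359.7 and 700.3 at 4 dpa and 1327, 1443 and 1856 at 7 dpa, and the fibronectin gene fn1b at 87.7, 80.2 and 207 at 4 dpa and 97.0, 91.5 and 50.8 at 7 dpa. In fn1b the highest library was 4 dpa replicate 3, and the groups overlapped. Of 18 collagen genes 0 were called (6 at an unadjusted p under 0.05, 4 with library weights), and the type I chain gene col1a1a stood at 415, 366 and 573 at 4 dpa and 605, 629.5 and 396 at 7 dpa, above 105, 209 and 160.2 at 0 dpa. Of 20 genes that modify or crosslink collagen 0 were called (7 at an unadjusted p under 0.05, 7 with library weights). Of 8 microfibril genes 1 was lower, the fibulin family gene efemp2a (log2 change -1.001, SE 0.26, adjusted p = 0.0480), and it lost the call on leaving out any of 10 libraries (adjusted p up to 0.150). The metalloproteinase gene adam8a fell from 3.56, 3.30 and 2.44 to 0.695, 1.09 and 0.878 (log2 change -1.11, SE 0.15, adjusted p = 4.20e-04), 1 of 9 genes of matrix proteases and their inhibitors, while mmp9 stood at 135, 104 and 49.9 at 4 dpa and 95.7, 107 and 117 at 7 dpa. Among 9 small proteoglycans 1 was higher, biglycan b (bgnb, 7.64, 6.88 and 4.59 to 10.6, 10.7 and 10.7, log2 change 0.68, SE 0.17, adjusted p = 0.0391), a call lost on leaving out any of 9 libraries. These single calls stand beside 2.50% of all genes lower and 1.13% higher.

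**Figure D3:**
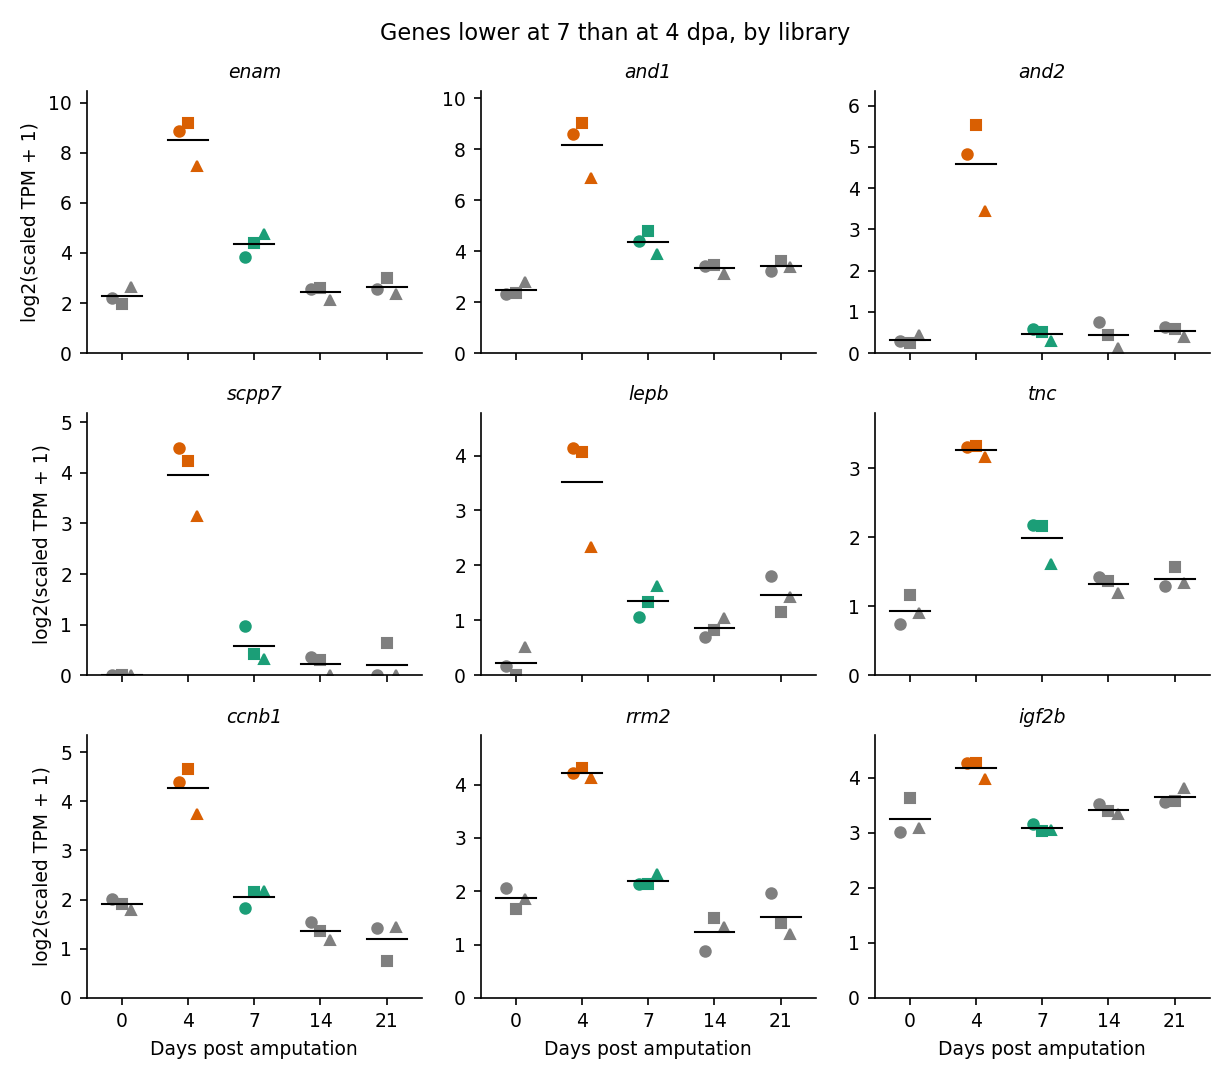
Log2(scaled TPM + 1) by days post amputation for 9 genes lower at 7 dpa: circles, squares and triangles are replicates 1, 2 and 3, and bars are group means. Each gene is highest at 4 dpa (orange), and and2 and scpp7 are under 1 scaled TPM in all 3 libraries at 7 dpa (green).

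Genes of leptin and of insulin-like growth factor signalling were among those that fell. Leptin b, lepb, a hormone gene known to be induced in regenerating zebrafish fins, stood at 16.6, 15.7 and 4.06 scaled TPM at 4 dpa and 1.09, 1.54 and 2.09 at 7 dpa (log2 change -2.17, SE 0.37, adjusted p = 0.00349). Replicate 3 was the lowest at 4 dpa, and without it the log2 change was -2.77. The suppressor of cytokine signalling gene socs3b, a feedback inhibitor of Stat3, stood at 14.0, 11.2 and 8.44 at 4 dpa and 3.10, 3.42 and 3.24 at 7 dpa (log2 change -1.497, SE 0.18, adjusted p = 1.70e-04), with 7 dpa in the range of 0 dpa (3.55, 3.08 and 2.61). Both were called in every fit that left out 1 library. They were 2 of 14 pathway genes tested, beside 2.50% of all genes lower. The paralog socs3a stood at 101, 43.4 and 41.6 at 4 dpa and 108, 64.9 and 64.7 at 7 dpa, and stat3 at 21.9, 20.4 and 30.2 at 4 dpa and 32.2, 34.4 and 22.1 at 7 dpa, both overlapping.

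Both insulin-like growth factor 2 genes were lower at 7 dpa. The ligand gene igf2b stood at 18.4, 18.3 and 14.7 scaled TPM and then at 7.96, 7.21 and 7.29 (log2 change -1.09, SE 0.18, adjusted p = 0.00251). It was not called in the deposited TPM, and was called in all 15 fits that left out 1 library. The ligand gene igf2a stood at 9.14, 9.47 and 5.90 at 4 dpa and 4.97, 3.75 and 4.09 at 7 dpa (log2 change -0.78, SE 0.20, adjusted p = 0.0435), and was called in only 4 of those fits (adjusted p up to 0.184, without 4 dpa replicate 1 or 2 among others). At 0 dpa igf2a stood at 10.3, 8.61 and 7.93, above its 7 dpa values. The binding protein gene igfbp6a was higher, from 0.893, 1.05 and 0.606 to 1.98, 1.62 and 3.19 (log2 change 0.80, SE 0.19, adjusted p = 0.0353), at low levels and with the call lost in 7 of the 15 fits. The binding protein gene igfbp1a stood at 32.5, 23.1 and 24.2 at 4 dpa and 10.7, 9.57 and 10.7 at 7 dpa without overlap but missed the threshold (adjusted p = 0.0594). Of the 16 genes of the list tested 2 were lower and 1 was higher, beside 2.50% and 1.13% of all genes, and the list's median was -0.08.

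Genes of the Fgf and Erk pathway did not pass the test between these times. Over all genes 3.63% were called, so 0 calls in lists this short do not set them apart. Of 9 Fgf ligand genes tested 0 were called (0 at an unadjusted p under 0.05, 0 with library weights), and 5 of the 29 in the table were at 0 in all 6 libraries. The ligand gene fgf16 stood at 3.43, 3.78 and 1.36 scaled TPM at 4 dpa and 3.57, 2.32 and 5.04 at 7 dpa, fgf7 at 1.44, 1.07 and 1.59 at 4 dpa and 0.638, 0.891 and 0.977 at 7 dpa, and fgf17 at 0.716, 0.959 and 0.703 at 4 dpa and 1.51, 1.056 and 1.16 at 7 dpa. All were low, and fgf7 and fgf17 did not overlap between the times. Of the 7 receptor genes 0 were called (1 at an unadjusted p under 0.05, 2 with library weights), with log2 changes from -0.06 to 0.56. The receptor gene fgfr4 moved most, from 5.16, 5.63 and 5.39 to 8.88, 8.87 and 7.66 without overlap (adjusted p = 0.0734), and fgfr3 stood at 12.2, 11.2 and 13.4 at 4 dpa and 16.9, 14.3 and 17.1 at 7 dpa, also without overlap. The genes fgfr1a, fgfr1b and fgfr2 changed by 0.18, 0.10 and 0.12 with overlapping libraries, and the decoy receptor genes fgfrl1a and fgfrl1b by -0.04 and -0.06.

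Genes of Ets factors and of Erk feedback inhibitors were likewise not called: 0 of 19 (2 at an unadjusted p under 0.05, 4 with library weights), beside 3.63% of all genes. Their median was 0.14, with -0.33 in the libraries of low and 0.28 in those of high rRNA share. Activity of Erk was not measured. Among the Ets factors, etv4 stood at 13.0, 13.6 and 9.55 scaled TPM at 4 dpa and 9.16, 10.4 and 7.54 at 7 dpa. The factor genes etv5a, etv5b, etv2, elk3, ets1 and ets2 had log2 changes of 0.06, 0.30, -0.35, 0.34, 0.06 and 0.62. The groups of etv4 did overlap narrowly, since 7 dpa replicate 2 was above 4 dpa replicate 3. Among the feedback inhibitors, the dual-specificity phosphatase gene dusp7 changed most, 10.1, 9.08 and 15.7 to 23.2, 25.2 and 15.5 (log2 change 0.83, SE 0.29, adjusted p = 0.149). The others of that family that were tested, dusp1, dusp2, dusp4 and dusp5, changed by 0.09, 0.14, -0.04 and -0.43. Of 18 feedback inhibitors listed 12 were tested, and dusp6 and dusp14 were not among them. The Sprouty genes spry1, spry2 and spry4 changed by -0.33, 0.17 and 0.20, the Spred genes spred1 and spred2b by 0.18 and 0.13, and the inhibitor genes il17rd and errfi1a by 0.17 and 0.38. Adjusted p-values of all these were above 0.1, which does not show that they were alike at both times: the SE of these changes ran up to 0.39.

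Other patterning pathways gave single calls or none, beside 3.63% of all genes called. The lists with 0 calls were Wnt (41 genes, 11 at an unadjusted p under 0.05, 13 with library weights), Bmp (26 genes, 4 and 3), activin and Tgf-beta (23 genes, 4 and 4), retinoic acid (22 genes, 2 and 2), Hedgehog (14 genes, 0 and 3) and Notch (19 genes, 4 and 11). Immediate early genes (24 genes, 4 and 7), posterior Hox genes (19 genes, 5 and 5) and genes of fin length and ray joints (8 genes, 3 and 3) also had 0 calls. In the Notch list 16 genes were higher and 3 lower in mean at 7 dpa (median 0.28, 0.05 in the deposited TPM). Of 14 genes grouped as Wnt ligands 9 were higher and 5 lower in mean (median 0.26). Of 13 grouped as Wnt antagonists 5 were higher and 8 lower (median -0.16). The Wnt antagonist family gene dkk3b stood at 123, 149 and 43.5 scaled TPM at 4 dpa and 24.1, 33.2 and 60.0 at 7 dpa (log2 change -1.33, SE 0.42, adjusted p = 0.105), with 7 dpa replicate 3 above 4 dpa replicate 3. The Bmp target gene id1 stood at 418, 469.5 and 250.0 at 4 dpa and 155, 179 and 298 at 7 dpa (adjusted p = 0.271), and the shear-responsive factor gene klf2a at 189.8, 225 and 343 at 4 dpa and 658, 746 and 456 at 7 dpa without overlap (log2 change 1.31, SE 0.35, adjusted p = 0.0589). Among 26 mesenchymal factors of the blastema 1 was called, beside 3.63% of all genes. This was snai2, a factor of epithelial to mesenchymal transition, which was higher (9.89, 8.44 and 6.36 to 13.1, 14.5 and 19.3, log2 change 0.85, SE 0.20, adjusted p = 0.0309) with the call lost without 4 dpa replicates 2 and 3 and 7 dpa replicates 2 and 3 in turn. Its 7 dpa values approached those at 0 dpa (17.9, 17.3 and 15.5).

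Skeletal genes gave 1 call among 26 of the osteoblast lineage, 0 among 9 of mineralization (0 at an unadjusted p under 0.05, 4 with library weights) and 0 among 17 of osteoclasts (1 and 2). Over all genes 3.63% were called. The matrix receptor gene mxra8a was lower, from 10.6, 10.9 and 7.54 to 5.63, 5.96 and 4.15 scaled TPM (log2 change -0.77, SE 0.17, adjusted p = 0.0190), a call lost without 4 dpa replicates 1 and 2 and 7 dpa replicate 3 (adjusted p up to 0.1004). The late osteoblast gene bglap, which encodes osteocalcin, stood at 1437, 1831 and 977 at 4 dpa and 3344, 3336 and 11075 at 7 dpa. The groups did not overlap, but 7 dpa replicate 3 stood far above the others and the change missed the threshold (log2 change 1.86, SE 0.53, adjusted p = 0.0704). The median of the osteoblast list was 0.20, against 0.0005 in the deposited TPM. It was 0.05 inside the libraries of low and 0.18 inside those of high rRNA share. In genes of resorption the libraries of each time spread widely: acp5a, the tartrate-resistant phosphatase of osteoclasts, stood at 67.8, 60.1 and 4.94 at 4 dpa and 52.8, 45.4 and 90.1 at 7 dpa, and ctsk at 437, 549.9 and 101 at 4 dpa and 221, 193 and 429 at 7 dpa, with 4 dpa replicate 3 lowest in both.

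Immune cell markers were not called in any list: macrophage 0 of 25 (2 at an unadjusted p under 0.05, 9 with library weights), neutrophil 0 of 14 (0 and 1) and antigen presentation and interferon 0 of 25 (3 and 7). Over all genes 3.63% were called. Macrophage markers summed to 6449, 8430.3 and 4407 scaled TPM at 4 dpa and 7488, 7521 and 13164 at 7 dpa, lowest in 4 dpa replicate 3 and highest in 7 dpa replicate 3. Among 38 chemokine and cytokine genes 1 was lower and 2 were higher, beside 2.50% and 1.13% of all genes. The chemokine gene ccl19b, whose mammalian relative attracts lymphocytes and dendritic cells, rose from 14.6, 17.2 and 16.1 to 74.5, 55.6 and 163 (log2 change 2.39, SE 0.37, adjusted p = 0.00180). It was the largest rise of any called gene on the log2(scaled TPM + 1) scale, 6.11-fold in the means, was called in every fit tried, and stayed within or under its 0 dpa range (403, 173 and 147). The chemokine gene cxcl12a rose from 44.4, 46.5 and 30.7 to 82.9, 79.8 and 109.5 (log2 change 1.15, SE 0.25, adjusted p = 0.0190), and the receptor gene cxcr4a, whose product binds Cxcl12, fell from 8.32, 7.10 and 10.5 to 3.50, 4.97 and 4.43 (log2 change -0.86, SE 0.20, adjusted p = 0.0286). Both calls were lost without 4 dpa replicate 1 or 3 or 7 dpa replicate 1 or 3 in turn (adjusted p up to 0.0605 and 0.139). At 0 dpa cxcl12a stood at 227, 216 and 142, above all 7 dpa libraries.

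The transcription factor gene foxn1 had the next largest rise after ccl19b on the log2(scaled TPM + 1) scale, which shrinks changes of genes at low levels, and a larger rise than ccl19b in the means. It is required for epithelial differentiation in the thymus and hair follicles of mammals. It stood at 1.28, 1.38 and 1.67 scaled TPM in the 3 libraries at 4 dpa and at 12.5, 9.70 and 10.2 at 7 dpa (log2 change 2.27, SE 0.21, adjusted p = 2.29e-05), 7.495-fold in the means. The groups were tight and far apart, and the call held in every fit tried. At 0 dpa foxn1 stood at 8.70, 8.23 and 12.8, so 4 dpa was the low point of the course, and at 14 dpa it averaged 12.3 ± 2.51 (SD, n = 3).

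Keratins moved in both directions. The basal keratin gene krtt1c19e was higher at 7 dpa, 491, 483 and 492 against 1010.3, 1013 and 1284 scaled TPM (log2 change 1.16, SE 0.30, adjusted p = 0.0482), 1 of 22 basal epidermis genes tested, beside 1.13% of all genes higher. The call was lost on leaving out any of 10 libraries, each of the 6 at 4 and 7 dpa among them (adjusted p up to 0.153). The superficial keratin gene krt17 was lower, 752, 959.6 and 654 against 249.8, 312 and 357 (log2 change -1.36, SE 0.32, adjusted p = 0.0310), 1 of 14 superficial epidermis genes tested, beside 2.50% of all genes lower. The call of krt17 was lost without 4 dpa replicates 1 and 2 and 7 dpa replicates 1 and 2 in turn. At 7 dpa krt17 was close to its 0 dpa values (276, 225 and 278). The dominant basal keratin genes krt91 and krt5 changed by 0.27 and 0.50 (adjusted p = 0.655 and 0.411).

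Pigment, vessel and nerve lists gave 4 calls together, beside 3.63% of all genes called. They held 10 melanophore, 16 iridophore and xanthophore, 20 endothelial and 13 Schwann cell and nerve genes tested. The receptor gene kita, needed by melanophores, was higher (5.15, 5.06 and 4.75 to 12.0, 11.2 and 8.41, log2 change 0.93, SE 0.20, adjusted p = 0.0187), with 7 dpa near 0 dpa (8.07, 13.4 and 11.4) and the call lost without 4 dpa replicates 1 and 2 and 7 dpa replicates 1 and 2 in turn. Of the 10 melanophore genes tested 9 had a higher mean at 7 dpa, but pmela stood at 12.8, 12.8 and 3.91 at 4 dpa and 13.3, 15.5 and 12.9 at 7 dpa, low in 4 dpa replicate 3 alone, and the list's median was -0.06 in the libraries of low and 0.98 in those of high rRNA share. The endothelial gene plvapb, which builds the diaphragms of small vessels, was lower (25.0, 29.1 and 25.3 to 12.1, 15.3 and 16.4, log2 change -0.82, SE 0.17, adjusted p = 0.0123, lost without 4 dpa replicate 2 and 7 dpa replicate 1). Of 20 endothelial genes 16 had a lower mean and the median was -0.31. The tubulin gene tubb2b, expressed in neurons and also in other cells, fell from 107, 120.4 and 88.1 to 42.5, 51.9 and 40.6 (log2 change -1.20, SE 0.20, adjusted p = 0.00344). It was not called in the deposited TPM or with the 6 libraries at 4 and 7 dpa fitted alone. It was called in all 15 fits that left out 1 library. Myelin protein zero, mpz, was higher (0.829, 0.574 and 1.21 to 2.17, 1.82 and 2.75, log2 change 0.80, SE 0.20, adjusted p = 0.0435), a call kept in 4 of those fits. Iridophore and xanthophore genes had 0 calls of 16 (3 at an unadjusted p under 0.05, 1 with library weights). The globin gene hbba1 stood at 181, 81.1 and 104 at 4 dpa and 89.3, 5.82 and 215 at 7 dpa, and the red blood cell list had 0 calls of 4 (1 and 0).

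The cytochrome P450 gene cyp1a, the standard target of the aryl hydrocarbon receptor, stood at 3.85, 4.50 and 6.54 scaled TPM at 4 dpa and 19.8, 23.1 and 16.1 at 7 dpa (log2 change 1.81, SE 0.23, adjusted p = 2.69e-04), above 9.59, 8.04 and 14.6 at 0 dpa. The inducible nitric oxide synthase gene nos2a stood at 31.5, 35.4 and 75.8 at 4 dpa and 166, 173 and 109 at 7 dpa (log2 change 1.71, SE 0.33, adjusted p = 0.00841), a call lost without 4 dpa replicates 1 and 2 (adjusted p up to 0.0585). In both genes every 7 dpa library was above every 4 dpa and every 0 dpa library, narrowly so for nos2a (57.8, 59.2 and 107 at 0 dpa). The prostaglandin D synthase gene ptgdsb.2 stood at 148, 144 and 139 at 4 dpa and 274, 344 and 634 at 7 dpa (log2 change 1.44, SE 0.34, adjusted p = 0.0296), under 1923, 1138 and 992 at 0 dpa, and the P450 gene cyp8b3 at 34.2, 38.5 and 42.8 at 4 dpa and 137, 51.5 and 197 at 7 dpa (log2 change 1.52, SE 0.37, adjusted p = 0.0339). These calls were less firm: ptgdsb.2 was lost without 4 dpa replicates 1, 2 and 3 and 7 dpa replicates 2 and 3, and cyp8b3 without 4 dpa replicates 1, 2 and 3, 7 dpa replicates 1 and 3 and 14 dpa replicate 1, each in turn.

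The remaining genes among the 20 largest rises were of mixed kinds. The gene zgc:136930 rose from 63.8, 59.1 and 102 to 300.1, 245 and 389.6 scaled TPM (log2 change 2.06, SE 0.27, adjusted p = 4.77e-04), still under its 0 dpa libraries (691, 632 and 488). The gene si:dkey-33c14.3, a long noncoding RNA in the RefSeq table, rose from 12.2, 13.9 and 6.45 to 47.3, 48.8 and 49.0 (log2 change 2.12, SE 0.37, adjusted p = 0.00379). Both were called in all 15 fits that left out 1 library, and neither overlapped between the times. The Myc family gene myclb rose from 6.12, 6.06 and 8.23 to 18.02, 17.1 and 14.5 (log2 change 1.17, SE 0.18, adjusted p = 0.00193), to its 0 dpa level (15.3, 20.1 and 16.9). The gene epdl1, an ependymin-like gene, rose from 18.2, 20 and 16.2 to 38.1, 47.5 and 41.7 (log2 change 1.18, SE 0.22, adjusted p = 0.00652), and the consortin gene cnstb from 4.97, 4.82 and 4.99 to 12.5, 10.8 and 15.13 (log2 change 1.21, SE 0.18, adjusted p = 0.00149). These 3 were also called in all 15 fits. The genes zgc:77439 and si:ch211-132b12.7 rose by 1.12 and 1.16, limd2 by 1.15, hemk1 by 1.26, si:dkey-91i10.3, a P450 gene with the RefSeq symbol cyp27a3, by 1.19, and si:dkey-206d17.12, with the RefSeq symbol zc3h12ab, by 1.12. Of these 6 only zgc:77439 and si:ch211-132b12.7 kept their calls in all 15 fits, and the largest adjusted p of the others was 0.140.

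**Figure D4:**
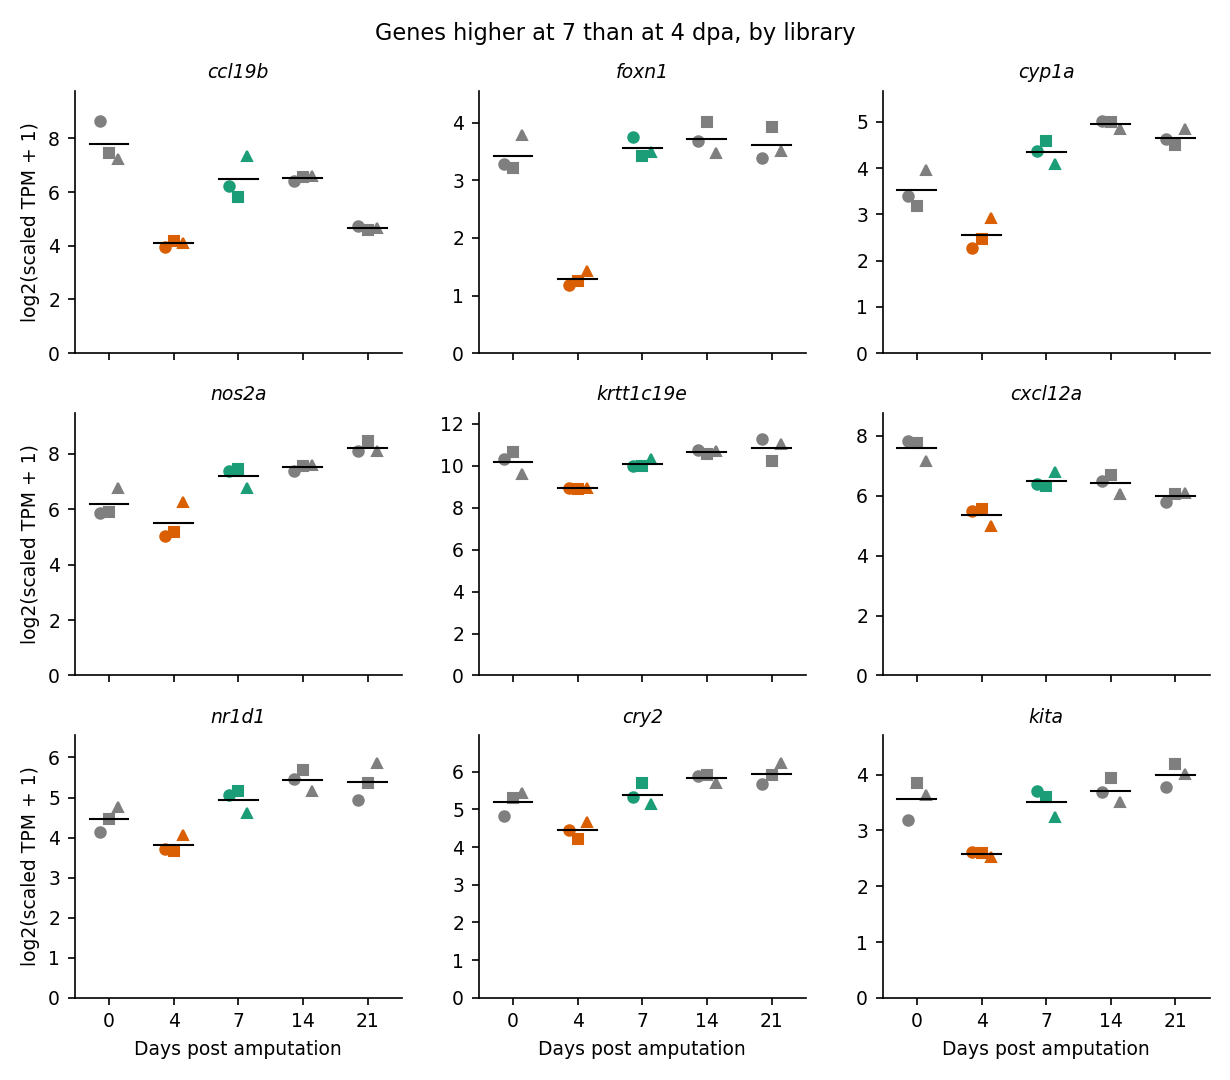
Log2(scaled TPM + 1) by days post amputation for 9 genes higher at 7 dpa: circles, squares and triangles are replicates 1, 2 and 3, and bars are group means. In each gene the 3 libraries at 7 dpa (green) lie above the 3 at 4 dpa (orange), and foxn1 at 7 dpa lies among the 0, 14 and 21 dpa libraries.

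Circadian clock genes were the list with the most rises, 5 of 28 tested with none lower, beside 1.13% of all genes higher. The circadian clock is a loop in which activators switch on their own repressors, and zebrafish fin cells can run it themselves. The list's median was 0.55, 22 of 28 had a higher mean at 7 dpa, and 15 higher against 2 lower had an unadjusted p under 0.05. All 5 called genes encode repressors of the loop. The hour at which fins were collected is not given in the sources used here. The repressor gene nr1d1, known as Rev-erb alpha, stood at 12.1, 11.8 and 15.7 scaled TPM at 4 dpa and 32.3, 35.1 and 23.4 at 7 dpa (log2 change 1.13, SE 0.26, adjusted p = 0.0246). The cryptochrome gene cry2 stood at 20.8, 17.5 and 24.5 at 4 dpa and 38.9, 51.3 and 34.4 at 7 dpa (log2 change 0.95, SE 0.22, adjusted p = 0.0303). The repressor genes bhlhe40 and bhlhe41 rose by 0.89 and 1.08, and ciarta from 13.0, 13.4 and 10.4 to 22.2, 22.6 and 24.8 (log2 change 0.87, SE 0.18, adjusted p = 0.0131). Libraries did not overlap in any of the 5. Replicate 3 of 7 dpa, the 7 dpa library of low rRNA share, was the lowest 7 dpa library in nr1d1, cry2, bhlhe40 and bhlhe41. In nr1d1 and cry2 the highest 4 dpa library was replicate 3, of high share.

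Only ciarta kept its call in all 15 fits that left out 1 library, and the other 4 lost it without 4 dpa replicate 1 or 2 or 7 dpa replicate 1 or 2 in turn. The list had between 1 and 7 calls over those fits, the fewest without 4 dpa replicate 1, and 0 in the deposited TPM, after rescaling to a constant total or with the 6 libraries fitted alone. Its median was above 0 under each scaling, 0.34 in the deposited TPM, 0.54 after rescaling to a constant total and 0.63 after quantile normalization. The list's median was 0.34 inside the libraries of low and 0.46 inside those of high rRNA share. The related genes, nr1d2a and nr1d2b, changed by 0.71 and 0.62 without a call (adjusted p = 0.295 and 0.0679). Targets of the glucocorticoid receptor had 0 calls of 13 (1 at an unadjusted p under 0.05, 4 with library weights). Among 16 heat shock genes 1 was lower, the endoplasmic reticulum chaperone gene hsp90b1 (63.5, 65.9 and 56.6 to 31.3, 36.9 and 27.7, log2 change -0.94, SE 0.20, adjusted p = 0.0167), lost without 4 dpa replicates 1 and 2 and 7 dpa replicates 1 and 3 in turn. Over all genes 2.50% were lower.

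**Figure D5:**
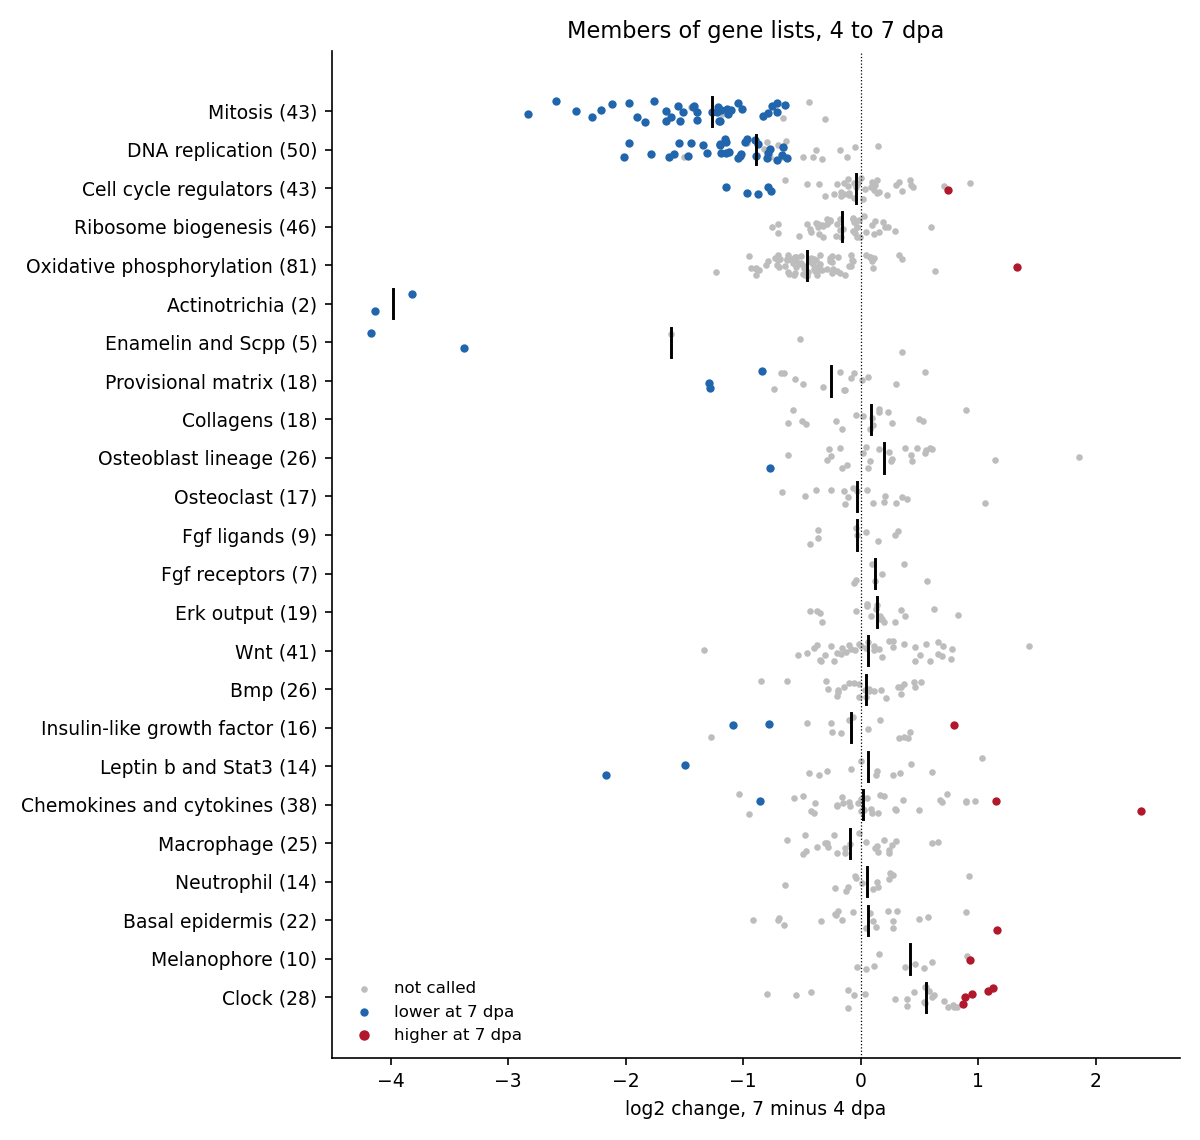
Each point is 1 tested gene of a list, placed by its log2 change from 4 to 7 dpa, with the number of genes tested in brackets and the list's median as a black bar. Genes of mitosis (37 of 43 lower) and DNA replication (32 of 50 lower) lie to the left of 0, apart from 1 replication gene. Above 0 lie 14 of 19 Erk output genes, 5 of 7 Fgf receptor genes and 4 of 9 Fgf ligand genes, none of them called. These signs depended on the scaling. In the deposited TPM the median was -0.08 for Erk output and -0.11 for Fgf receptor genes, against 0.14 and 0.12 here. Of 28 clock genes 5 are called higher.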

How the data were processed

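RNA was measured in 15 libraries of zebrafish fin tissue, 3 pools of wild-type animals at each of 0, 4, 7, 14 and 21 dpa. The authors deposited TPM per gene symbol, 1 column per library, each with the same total. The submitters' processing notes name Trim Galore 0.6.7, cutadapt 3.5, Salmon 1.4.0 and the build danRer11, with no role or order, and annotation is not given in the sources used here. Per the labels' protocols, cDNA was amplified by PCR and tagged with Tn5, without molecular identifiers. TPM keeps no read depth, so depth per library is unknown and no counting interval is given.

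The rRNA gene zgc:158463 was removed and each library was divided by a median-of-ratios factor from the 10773 genes above 0 in every library. Of the 14835 genes left, 10234 that reached a TPM of 1 in 3 or more libraries were tested on log2(scaled TPM + 1) with limma 3.58.1 in R 4.3.3. The fit held all 15 libraries, a mean for each time, an intensity trend and Benjamini-Hochberg adjustment over all genes tested, with calls at an adjusted p under 0.05. The fitting code was tested on simulated data. Replicates are separate pools of animals, and shared replicate numbers are not labelled as shared batches.

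Genes were named by a rule: the 20 largest falls and 20 largest rises among called, non-overlapping genes with a mean of at least 10 scaled TPM in the higher group, and per list up to 6 called members with the largest change and up to 3 members not called with the highest mean level. Actinodins, Fgf receptors, Ets factors and the Dusp, Spry and Spred genes could be named in full. The comparison, the 48 gene lists and the rule were chosen with earlier results of these data known. Symbols were looked up in a RefSeq table of assembly GRCz12tu, where 14687 matched, and it was used for names only. Alternatives covered scaling, pseudocount, filter, the libraries fitted, weights, variance model, a replicate block and leaving out each library.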

Additional observations from a re-analysis of the deposited data

How the results depend on the processing

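Against 372 calls (256 lower and 116 higher at 7 dpa), each alternative below gives calls, then lower, then higher. Scaling gave 142, 135 and 7 in the deposited TPM and 224, 200 and 24 after rescaling to a constant total. A filter of at least 5 TPM in 3 libraries gave 222, 135 and 87. Fitting only the 6 libraries at 4 and 7 dpa gave 112, 90 and 22, only those at 0, 4 and 7 dpa 179, 138 and 41, and only 0 and 4 dpa with 7 dpa replicates 1 and 3 gave 94, 83 and 11, each with fewer samples. Library weights gave 2824, 1649 and 1175, in a fit that did not reach its convergence tolerance. Leaving out 1 library gave 159 to 403 calls, 131 to 288 lower and 28 to 128 higher, with the fewest without 4 dpa replicate 1; 172, 179 and 211 remained without 4 dpa replicate 2, 7 dpa replicate 1 and 7 dpa replicate 2, which also leaves fewer samples. Alternatives chosen after seeing the data were the rRNA share as a covariate (856, 514 and 342) and leaving out libraries over 50% rRNA (91, 79 and 12). The cause of the other shifts was not tested. The other alternatives kept each count within 1.5 times, apart from the replicate block, with 269, 199 and 70. Same-numbered libraries did not deviate together (correlations of -0.221, -0.41 and -0.625 for replicates 1, 2 and 3). The correlation was 0.649 between 4 dpa replicate 2 and 7 dpa replicate 3, and 0.506 between 4 dpa replicate 3 and 7 dpa replicate 1. Both are pairs of like rRNA share. Libraries of like share carried different numbers at the 2 times, so these correlations cannot decide whether the numbers pair the samples. Of the calls here, 137 were also made in the deposited TPM, 109 with the 6 libraries alone and 262 under the block. Over the named genes, no direction reversed where the main or the alternative fit passed the threshold. Changes of sign in values past it in neither fit were not counted as reversals. Such signs could depend on the scaling: the median of the Fgf receptor genes was 0.12 here and -0.11 in the deposited TPM. Of the values, 7013 stayed on their side of the threshold, 434 lost the call and 118 gained it. The mitosis list had from 8 calls (of 11 genes that passed the filter of 5 TPM) to 41, and DNA replication from 8 (0 and 4 dpa with 7 dpa replicates 1 and 3) to 39. Low TPM limits genes such as cox6a2, mpz and igfbp6a, and read depth is unknown.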

Other observations

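Protein turnover and folding genes, grouped after their values were seen, were lower at 7 dpa in part. Of 41 tested genes of the proteasome, the complex that degrades ubiquitin-tagged proteins, 7 were lower and 0 higher (limma, median log2 change -0.77), beside 2.50% of all genes lower, and 41 had a lower mean. The lid subunit gene psmd3 stood at 13.3, 14.5 and 17.5 scaled TPM at 4 dpa and 6.69, 5.79 and 7.67 at 7 dpa (log2 change -1.064, SE 0.18, adjusted p = 0.00370). The number of proteasome calls was 1 to 8 on leaving out 1 library, the fewest without 4 dpa replicate 1, and 0 in the deposited TPM or with the 6 libraries fitted alone. The median was -0.54 inside the libraries of low and -0.62 inside those of high rRNA share.

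Of 25 tested genes for folding and glycosylation in the endoplasmic reticulum, 9 were lower and 0 higher, beside 2.50% of all genes lower (median -0.62). The calreticulin gene calr3b, a chaperone of newly made glycoproteins, stood at 22.8, 23.1 and 19.1 scaled TPM at 4 dpa and 10.3, 9.83 and 8.18 at 7 dpa (log2 change -1.12, SE 0.17, adjusted p = 0.00149). The oligosaccharyl transferase subunit gene ddost stood at 63.6, 68.3 and 65.7 at 4 dpa and 35.0, 32.9 and 35.2 at 7 dpa (log2 change -0.92, SE 0.16, adjusted p = 0.00373). Neither overlapped between the times. The calls numbered 2 to 9 on leaving out 1 library, the fewest without 4 dpa replicate 1, 0 in the deposited TPM and 1 with the 6 libraries fitted alone.

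Of the histone genes, grouped likewise, 18 were tested, of which 6 were lower and 0 higher, beside 2.50% of all genes lower (median -0.85). The histone calls numbered 5 to 7 on leaving out 1 library and 3 with the 6 libraries fitted alone. The histone H4 gene hist1h4l stood at 6.43, 5.45 and 4.19 scaled TPM at 4 dpa and 0.419, 1.15 and 0.214 at 7 dpa (log2 change -2.02, SE 0.32, adjusted p = 0.00187), and the variant gene h2az2b at 119, 141 and 95.9 at 4 dpa and 23.7, 43.5 and 47.4 at 7 dpa (log2 change -1.65, SE 0.30, adjusted p = 0.00568). Near-identical copies can share reads, so the values of single histone genes are uncertain.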
